A study of Mus musculus with 12 samples.

Results

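The genes described here are 9 of the 45796 in the deposited table: the cytokines Il17a and Il17f, the transcription factors Rora, Maf and Sox13, the kinase Blk, and the surface receptors Il23r, Ccr6 and Cd163l1. They were taken by gene symbol as the cytokines, regulators and receptors of gamma delta T cells that make IL-17. RNA was measured in gamma delta T cells labelled as carrying the Vg4 and Vd4 receptor chains, isolated from lymph nodes that drain the skin of C57BL/6 mice. The 4 groups, of 3 libraries each, were NF-kB1-deficient mice given imiquimod cream, wild-type mice given imiquimod cream, NF-kB1-deficient mice given sham cream and wild-type mice given sham cream. Imiquimod activates a Toll-like receptor and inflames mouse skin, and NF-kB1 is the p105 precursor of the p50 NF-kB subunit. The labels call the mice NF-kB1 deficient and give neither the allele, the age of the animals nor the length of treatment. Whether the 3 libraries of a group were made from different animals is not stated, so each p-value reflects the variation among these libraries, which may be technical.

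As background, gamma delta T cells that make IL-17 acquire this ability largely in the thymus, under the control of SOX13, MAF and the ROR nuclear receptors. In the periphery they respond to IL-23, made by dendritic cells and macrophages, by releasing IL-17A and IL-17F, which act on keratinocytes and recruit neutrophils. In the mouse, cells of this kind with a Vg4 chain (a name that depends on the nomenclature used) are known for their part in skin inflammation after imiquimod.

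Values below are the authors' normalized read counts, taken from the log2 scale back to the linear scale and called normalized values. The libraries read 1 fragment near the 3' end of each transcript, and steps in the low values correspond to between 20507 and 69455 gene reads in a library (median 35383). A single read was worth 0.488 to 1.98 normalized units. Deposited log2 values at or below 0 were set to 0 here, so no value could lie between 0 and 1. Listed at 0 means such a value. It can hide 1 read in the 5 libraries where a read was worth less than 1. In wild-type sham replicate 2, where a read was worth 0.488, it can hide 2 reads. Gapdh, which every cell uses, was listed at 0 in 5 libraries, so a 0 is described only as listed. Nfkb1 itself had 5.41, 6.64 and 5.84 in NF-kB1-deficient imiquimod libraries, 7.34, 21.0 and 0 in wild-type imiquimod libraries, 8.82, 1.09 and 2.52 in NF-kB1-deficient sham libraries and 6.71, 4.38 and 1.24 in wild-type sham libraries. These values did not separate the genotypes. A 3' read outside a deleted part would not check the label.

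The labelled cell type was compared with its defining genes. The receptor lines Tcrd and Tcrg were above 0 in all 12 libraries, while the segments Tcrg-V4 and Trdv4 and the constant genes Trdc, Tcrg-C1 and Tcrg-C4 were listed at 0 in all of them, so the labelled chains could not be checked. Of 10 markers taken for the labelled cells, 6 were above 0 in each group. They were Tcrd, Tcrg and the CD3 chain genes Cd3d, Cd3e, Cd3g and Cd247, which are not particular to gamma delta T cells. The summed value of the 10 was 129 to 154 in NF-kB1-deficient imiquimod and 30.9 to 80.4 in wild-type imiquimod libraries. It was 92.5 to 176 in NF-kB1-deficient sham and 114 to 165 in wild-type sham libraries. Lower sums in wild-type imiquimod libraries thus accompany every comparison below that uses them, and their part in those results was not tested. Depth also lay apart between the imiquimod groups, at 20507 to 35611 gene reads in wild-type and 45957 to 67043 in NF-kB1-deficient libraries. Its part in the genotype differences under imiquimod, such as those of Il7r, Cd27 and Tcrd, was not tested either. Markers of B cells, of natural killer and innate lymphoid cells, and of neutrophils were listed at 0 in all libraries. Myeloid markers summed to at most 1.95, and alpha beta T cell markers to at most 17.3, with Cd4, Trac, Trbc1, Trbc2 and Foxp3 listed at 0. Since the constant genes Trdc, Tcrg-C1 and Tcrg-C4 were also listed at 0, those of Trac, Trbc1 and Trbc2 cannot show whether alpha beta T cells were absent. Plasma cell markers reached 16.2, those of keratinocytes and stroma 21.1 and those of red cells 50.6, the last in an NF-kB1-deficient imiquimod library.

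The promoters of the cytokine pair are shown because Il17a and Il17f are neighbours on chromosome 1 that differed in whether any read was listed. Il17a lies at chr1:20730905-20734496 on the plus strand and Il17f at chr1:20777146-20785274 on the minus strand, with 42649 bases between them (RefSeq, GRCm38.p6, the mm10 assembly). Each window runs from 250 bases before to 50 bases after a transcription start and is written 5' to 3' along the gene. Capitals mark AGGTCA, the core letters bound by ROR factors, and TGCTGAC, a MAF recognition element, each searched on both strands.
Il17a, chr1:20730655-20730954, plus strand: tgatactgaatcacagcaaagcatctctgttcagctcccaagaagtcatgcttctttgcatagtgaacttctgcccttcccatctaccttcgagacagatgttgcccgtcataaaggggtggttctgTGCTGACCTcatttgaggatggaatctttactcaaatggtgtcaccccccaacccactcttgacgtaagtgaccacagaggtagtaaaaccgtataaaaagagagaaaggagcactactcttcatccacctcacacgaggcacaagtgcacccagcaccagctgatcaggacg
Il17f, chr1:20784221-20784520, minus strand: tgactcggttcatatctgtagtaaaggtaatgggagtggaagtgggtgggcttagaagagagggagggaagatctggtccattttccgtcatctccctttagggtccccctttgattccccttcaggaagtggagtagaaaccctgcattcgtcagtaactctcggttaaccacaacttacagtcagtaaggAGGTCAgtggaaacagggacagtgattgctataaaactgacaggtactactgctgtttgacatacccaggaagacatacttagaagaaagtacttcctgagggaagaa
In the Il17a window both motifs share letters within TGCTGACCT, with the MAF letters 123 bases and the ROR letters, on the other strand, 120 bases before the start. The Il17f window held AGGTCA 58 bases before the start. The start that RefSeq gives for this Il17f window lies within the gene interval printed above, not at its end.

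RefSeq windows matched 7 of the 9 genes (8 windows, since Ccr6 has a pair). Maf and Blk were not matched. Like that of Il17f, some windows lie wholly inside the gene interval. They are those of Cd163l1 (chr7:140218017-140218316) and Rora (chr9:68653536-68653835) and the second of Ccr6 (chr17:8242276-8242575). AGGTCA occurred in 4 of the 8 windows, those of Il17a, Il17f, Il23r and Ccr6, and in 16.3% of 32851 mouse promoter windows of the same length. TGCTGAC occurred in 3 of the 8, those of Il17a, Il23r and Ccr6, and in 4.67% of all windows. ATTGTT, the letters of SOX factors, occurred in 0 of the 8 and in 10.7% of all windows. The kappa B consensus, bound by NF-kB, occurred in 1 of the 8, the second Ccr6 window, and in 8.46% of all windows. A match describes letters in a window, not a bound site.

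Few reads fell on these genes. All 9 had a line in the table, 8 were above 0 in any library, and 66 of their 108 values were listed at 0. NF-kB1-deficient imiquimod libraries held 11 values above 0, over 6 of the genes. Wild-type imiquimod libraries held 13, over 8 genes. NF-kB1-deficient sham libraries held 7, over 4 genes, and wild-type sham libraries held 11, over 4 genes. Of all genes above 0 in any library, NF-kB1-deficient imiquimod libraries held 37.5% to 53.2% each and wild-type imiquimod libraries 28.0% to 36.4%. For NF-kB1-deficient sham libraries the share was 29.7% to 39.4%, and for wild-type sham libraries 31.1% to 49.4%. The counts for the 9 genes were not adjusted for these shares. Together the 9 genes made up 0.0240% to 0.206% of a library's summed value.

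**Figure D1:**
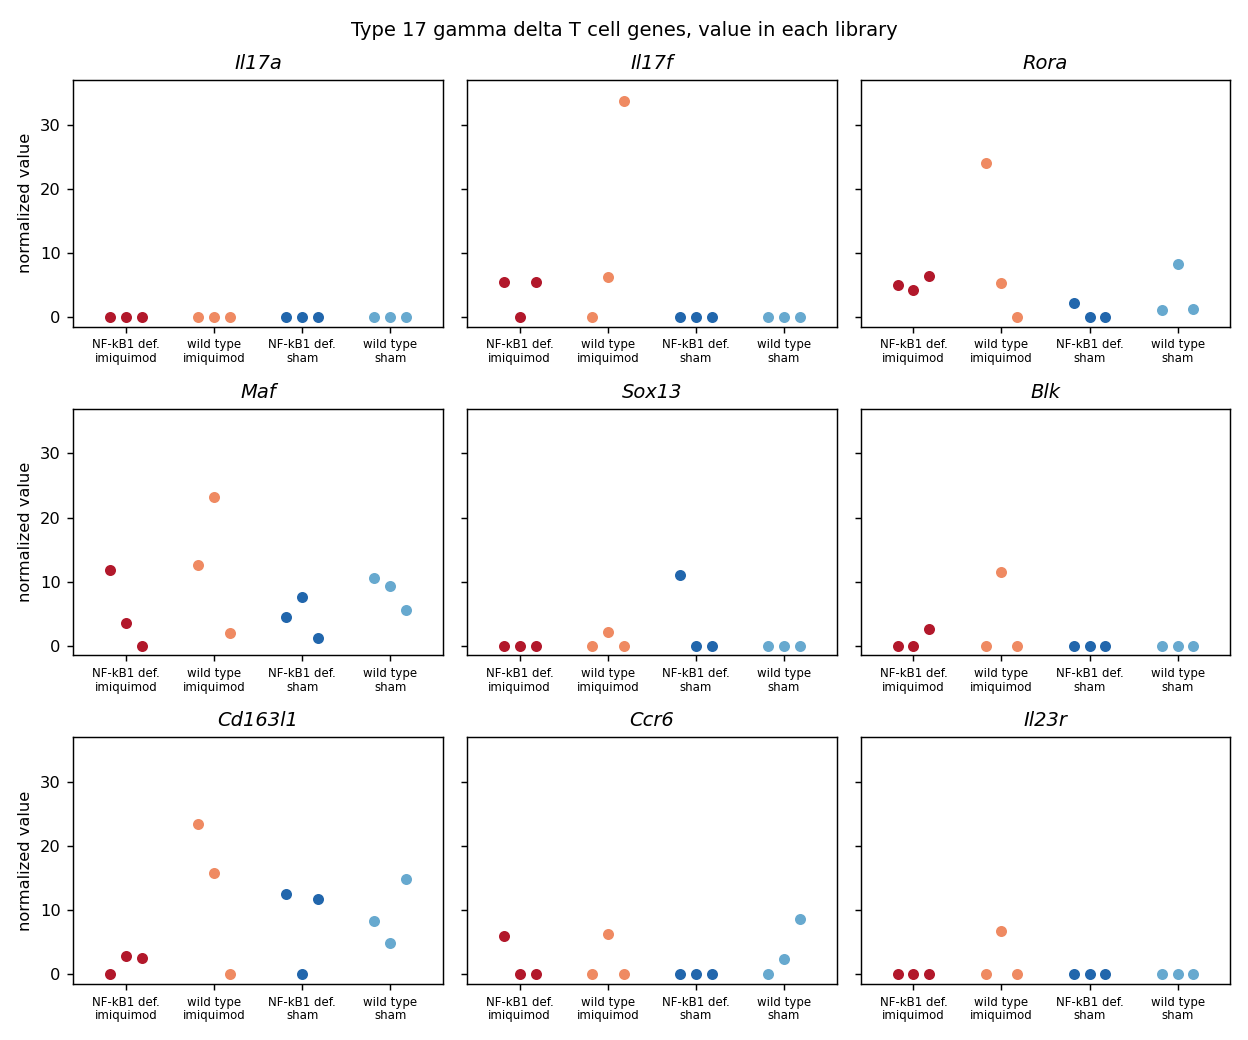
Normalized value (y axis, linear) of each of the 9 genes in each library; each point is 1 library, with the 4 groups side by side on the x axis. Most points lie at 0, Il17a lies at 0 throughout, and the highest point is Il17f at 33.7 in wild-type imiquimod replicate 3.

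Il17a, the cytokine that gives these cells their name, was listed at 0 in all 12 libraries. Il17f, its close relative and partner in heterodimers, had normalized values of 5.51, 0 and 5.51 in NF-kB1-deficient imiquimod libraries and 0, 6.32 and 33.7 in wild-type imiquimod libraries. It was listed at 0 in all 6 sham libraries. The 4 values above 0 rested on 6 to 17 reads each, and the highest came from the library with the fewest implied reads. Il17f was thus above 0 in 4 of 6 imiquimod libraries and 0 of 6 sham libraries, and the groups overlapped at 0. Across the table, 52 of 9732 genes (0.534%) were listed at 0 in every sham library and above 0 in at least 4 imiquimod libraries, and 29 (0.298%) showed the opposite. An exact two-sided permutation test, with creams exchanged within each genotype (400 arrangements, smallest possible p 0.005), gave p = 0.08 for Il17f under imiquimod. In each genotype 2 of 6 libraries were above 0 (exact permutation p = 0.60 for NF-kB1 deficient against wild type).

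Rora encodes ROR alpha, a nuclear receptor active in type 17 cells. Rora had 5.01, 4.19 and 6.49 in NF-kB1-deficient imiquimod libraries, 24.1, 5.26 and 0 in wild-type imiquimod libraries, 2.21, 0 and 0 in NF-kB1-deficient sham libraries and 1.12, 8.30 and 1.24 in wild-type sham libraries. Every NF-kB1-deficient imiquimod library was above every NF-kB1-deficient sham library, and it was the only one of the 9 genes whose groups did not overlap in any comparison within a genotype or cream. Of the 9732 genes above 0 in any library, 292 (3%) lay apart in that direction in that comparison and 1.62% in the other. The shares were 2.61% higher and 3.58% lower for imiquimod against sham in wild type. For NF-kB1 deficient against wild type they were 4.27% and 2.44% under imiquimod and 1.56% and 1.95% under sham. With 3 libraries against 3, the exact permutation test cannot go below p = 0.10. The NF-kB1-deficient groups also differed in depth. Sham replicates 2 and 3, with Rora listed at 0, had 29115 and 27121 implied reads. NF-kB1-deficient imiquimod libraries had 45957 to 67043, and their Rora values rested on 6 to 10 reads. Over both genotypes, imiquimod against sham gave exact permutation p = 0.13, and NF-kB1 deficient against wild type gave p = 0.52. Between these groups the wild-type libraries spread widely, with the highest and a listed 0 both in the wild-type imiquimod group. Gm15511 is annotated on the strand opposite Rora and Gm15655 opposite Maf, and whether strand was used in counting is not given in the sources used here.

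Maf encodes c-MAF, a leucine zipper factor needed for IL-17 production by gamma delta T cells in the mouse. Maf had 11.8, 3.49 and 0 in NF-kB1-deficient imiquimod libraries, 12.6, 23.2 and 1.98 in wild-type imiquimod libraries, 4.41, 7.66 and 1.26 in NF-kB1-deficient sham libraries and 10.6, 9.27 and 5.59 in wild-type sham libraries. Above 0 in 11 of 12 libraries, it was the most widely detected of the 9, and its groups overlapped in all comparisons. Cd163l1 encodes SCART1, a scavenger receptor family protein that marks mouse gamma delta T cells able to make IL-17. Cd163l1 had 0, 2.79 and 2.59 in NF-kB1-deficient imiquimod libraries, 23.5, 15.8 and 0 in wild-type imiquimod libraries, 12.5, 0 and 11.7 in NF-kB1-deficient sham libraries and 8.39, 4.88 and 14.9 in wild-type sham libraries. Its groups overlapped in every comparison within a genotype or cream. Of its 9 values above 0, 3 were not whole reads. The gene next to it, 5830411N06Rik, lies 16133 bases away, and 4 of its 7 values above 0 were not whole (singled out after its values were seen). Values that are not whole were also found for Maf (3 of 11), Il17f (1 of 4) and Il23r (1 of 1), and over all genes 71.2% to 80.2% of values under 20 reads were whole in each library, so this is not particular to Cd163l1. How the authors counted reads shared between similar genes is not given in the sources used here, and the values of Cd163l1 are uncertain to that extent.

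Maf and Cd163l1 were the only 2 of the 9 with a mean of at least 5 over the 12 libraries, the minimum for the test across genes, which 1571 genes met. That test was limma on log2(normalized value + 1), with Benjamini-Hochberg adjustment over the 1571 genes and a call at an adjusted p under 0.05. Neither gene was called in any of 7 comparisons, and neither had an unadjusted p under 0.05. Of all tested genes, 0% were called for imiquimod against sham in NF-kB1 deficient (53 genes had an unadjusted p under 0.05) and 3.25% in wild type. For NF-kB1 deficient against wild type, 1.78% were called under imiquimod and 0% under sham (96 unadjusted). The interaction, which is the imiquimod response of NF-kB1-deficient minus that of wild-type cells, had 0.446% called. Averaged over both genotypes imiquimod had 1.34% called, and averaged over both creams genotype had 0.191%. With no minimum, none of the 8 genes above 0 was called either. The lowest unadjusted p-values there were those of Il17f for imiquimod against sham, 0.00633 over both genotypes (limma adjusted p = 0.736) and 0.0213 in wild type (adjusted p = 0.683); no fold is given, since all sham libraries were listed at 0. In that fit of 9732 genes, 0.113% were called for imiquimod in wild type, 0.0308% for genotype under imiquimod, 0.0103% for the interaction, 0.0514% for imiquimod over both genotypes and 0.0103% for genotype over both creams, and 0% in the remaining comparisons.

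Under imiquimod the log2 difference of NF-kB1 deficient against wild type was -1.36 ± 1.13 (SE) for Maf (limma adjusted p = 0.63) and -1.64 ± 1.19 for Cd163l1 (adjusted p = 0.58). Averaged over both creams it was -1.16 ± 0.80 for Maf, with a 95% interval of -2.75 to 0.42, and -1.21 ± 0.84 for Cd163l1, with an interval of -2.87 to 0.45. Both limma adjusted p were 0.68. For imiquimod against sham in NF-kB1-deficient cells, Maf gave -0.29 ± 1.13 and Cd163l1 -1.22 ± 1.19. In wild-type cells Maf gave 0.10 ± 1.13 (interval -2.13 to 2.34) and Cd163l1 -0.36 ± 1.19 (interval -2.72 to 1.99). The interactions were -0.40 ± 1.60 and -0.85 ± 1.68. All of these intervals include 0. Those for imiquimod against sham and the interaction are wide on both sides, while the genotype intervals over both creams reach much further below 0 than above it.

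**Figure D2:**
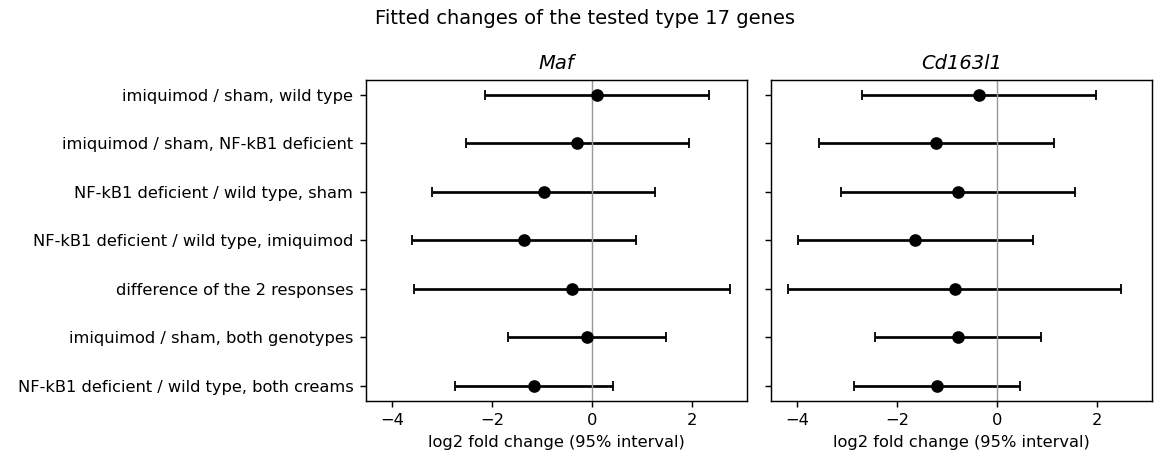
Log2 difference (x axis) of Maf and Cd163l1 in the 7 comparisons of the limma test, with bars for 95% intervals. All bars cross 0, and both genes lie below 0 for NF-kB1 deficient against wild type under either cream.

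The 4 remaining genes were each above 0 in 1 to 4 libraries. Il23r, the receptor chain that makes cells responsive to IL-23, had 6.84 in wild-type imiquimod replicate 2 and was listed at 0 elsewhere. That library alone was above 0 for 182 of 9732 genes (1.87%). Ccr6, the receptor for the chemokine CCL20 in inflamed skin, had 6.01, 0 and 0 in NF-kB1-deficient imiquimod libraries and 0, 6.32 and 0 in wild-type imiquimod libraries. It was listed at 0 in all NF-kB1-deficient sham libraries and had 0, 2.44 and 8.69 in wild-type sham libraries. Blk, a Src family kinase required in the mouse for normal numbers of these cells, had 0, 0 and 2.59 in NF-kB1-deficient imiquimod libraries and 0, 11.6 and 0 in wild-type imiquimod libraries, and was listed at 0 in all sham libraries. Sox13, an early lineage factor of IL-17-producing cells, had 11.03 in NF-kB1-deficient sham replicate 1 and 2.11 in wild-type imiquimod replicate 2 and was listed at 0 in the other 10 libraries. None of the 16 exact permutation tests on the 8 genes, for cream and for genotype, had p under 0.05 (unadjusted). The lowest was that of Il17f for cream. For Il17f, Il23r, Sox13, Blk and Ccr6 neither test could go under 0.05, since so many of their values were tied at 0. Their p-values thus do not show that these genes were unchanged.

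One library held most of the genes. In wild-type imiquimod replicate 2, 8 of the 9 (88.9%) were above 0, while 36.1% of all genes above 0 anywhere were. Each of the other 11 libraries held 1 to 4 of the 9. It had 35611 implied reads, near the median of 35383. Without it, Il23r would be listed at 0 throughout, Sox13 and Blk would each be above 0 in 1 library, and Ccr6 in 3.

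**Figure D3:**
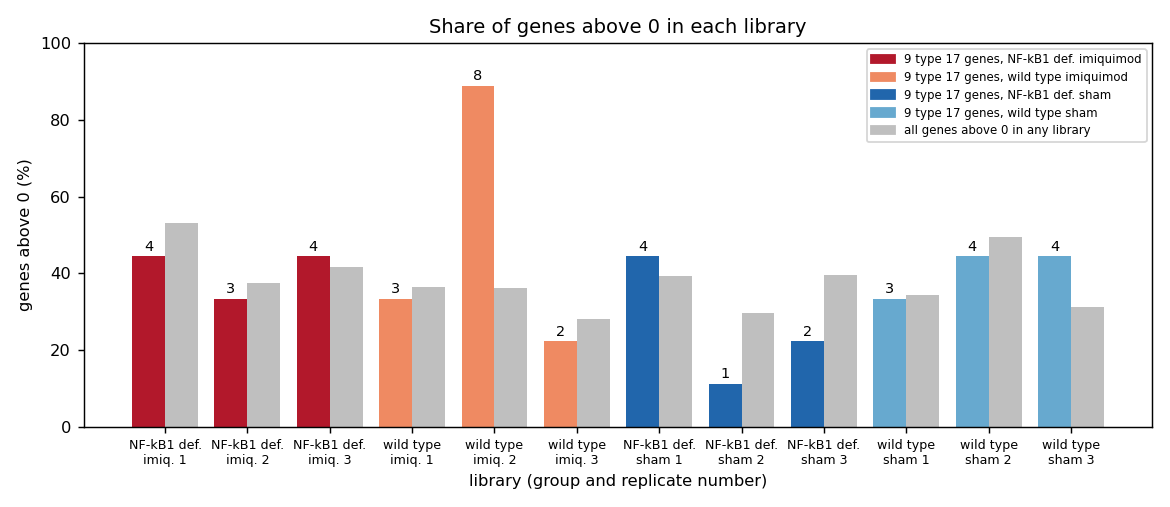
Share of genes above 0 (y axis, percent) in each library (x axis), for the 9 genes (coloured bars, with their number on top) and for all genes above 0 in any library (grey bars). Wild-type imiquimod replicate 2 stands at 8 genes, and the other libraries at 1 to 4.

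Of 34 companion genes of the type 17 program, chosen with earlier results of these data known, 31 were above 0 and 10 were tested. Zbtb16, encoding PLZF, was above 0 in 1 library, and Il22, Csf2 and Il1r1 were listed at 0 throughout. Il7r, the receptor for IL-7, which maintains these cells, was the only companion called in any comparison. It had 35.3, 48.5 and 27.9 in NF-kB1-deficient imiquimod libraries. In wild-type imiquimod libraries it had 10.48, 11.6 and 1.98, with no overlap, as for 10.8% of tested genes in that direction. Its mean was 37.2 ± 10.47 against 8.01 ± 5.25 (SD, n = 3 each), a log2 difference of 2.31 ± 0.67 (SE, limma adjusted p = 0.0459). That call was lost when any 1 of 6 libraries was left out: each NF-kB1-deficient imiquimod library, wild-type imiquimod replicate 3, NF-kB1-deficient sham replicate 1 or wild-type sham replicate 2 (adjusted p 0.0585 to 0.316). A pseudocount of 0.1 (adjusted p = 0.0878) or 10 (0.0573) in place of 1 also ended it. The median log2 difference of the 10 was 0.59 under imiquimod for NF-kB1 deficient against wild type, beside 0.14 for all tested genes, with 6 positive and 4 negative. For imiquimod against sham in wild type it was -0.78, beside -0.07, with 4 positive and 6 negative.

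Other tested companions gave no call. Cd44, an adhesion receptor of activated T cells, and Icos, a co-stimulatory receptor, were singled out after their values were seen because they lay opposite to the median. For imiquimod against sham in wild type Cd44 gave 3.46 ± 1.13 (log2, SE, limma adjusted p = 0.0706) and Icos 3.31 ± 1.14 (adjusted p = 0.0835). For NF-kB1 deficient against wild type under imiquimod Cd44 gave -2.83 ± 1.13 (adjusted p = 0.203) and Icos -1.56 ± 1.14 (adjusted p = 0.580). Cxcr6, a chemokine receptor of resident T cells, had 7.76, 0 and 9.08 in NF-kB1-deficient imiquimod libraries, 36.7, 6.32 and 21.8 in wild-type imiquimod libraries, 4.41, 24.1 and 0 in NF-kB1-deficient sham libraries and 34.7, 11.96 and 27.3 in wild-type sham libraries. Its genotype difference over both creams was -2.12 ± 0.72 (log2, limma adjusted p = 0.21). Il21r, S100a4 and Ikzf2 differed by 2.60 ± 0.95, -0.88 ± 0.64 and 0.56 ± 0.74 for NF-kB1 deficient against wild type under imiquimod (adjusted p 0.153 to 0.777).

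The genes of type 1 gamma delta T cells, which make interferon gamma in place of IL-17 and carry CD27, were set beside them. Of 24 listed, 11 were tested and 1 was called, Cd27, the co-stimulatory receptor whose absence marks IL-17 producers in the mouse. Cd27 had 19.4, 76.1 and 21.1 in NF-kB1-deficient imiquimod libraries, 4.19, 6.32 and 3.96 in wild-type imiquimod libraries, 27.6, 23.5 and 18.2 in NF-kB1-deficient sham libraries and 64.3, 32.7 and 34.2 in wild-type sham libraries. All 3 wild-type imiquimod libraries lay below the other 9. Of tested genes, 10.8% lay apart downward for imiquimod against sham in wild type. For NF-kB1 deficient against wild type under imiquimod, 10.8% lay apart upward. Cd27 fell under imiquimod in wild type by 2.89 ± 0.66 on the log2 scale (limma adjusted p = 0.00274) and was higher in NF-kB1-deficient than in wild-type imiquimod libraries by 2.51 ± 0.66 (adjusted p = 0.0249). The second call was lost without NF-kB1-deficient imiquimod replicate 2 (adjusted p = 0.409), and the interaction was 3.35 ± 0.93 (adjusted p = 0.0813). For imiquimod against sham in wild type, 10 of the 11 differences were negative (median -2.18, beside -0.07 for all tested genes). For NF-kB1 deficient against wild type under imiquimod, 10 were positive (median 1.63, beside 0.14); both comparisons share the wild-type imiquimod libraries.

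Ccl5, a chemokine of effector cells, was among the tested genes without a call. It gave -2.21 ± 0.89 for imiquimod against sham in wild type (log2, limma adjusted p = 0.133). S1pr1, needed to leave lymph nodes, gave -1.59 ± 0.75 (adjusted p = 0.203), and its regulator Klf2 gave 0.32 ± 0.55 (adjusted p = 0.794).

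Among 15 receptor genes of gamma delta T cells, 5 were tested and Tcrd was called. Tcrd, the delta chain locus line, had 62.8, 53.5 and 58.9 in NF-kB1-deficient imiquimod libraries, 14.1, 30.5 and 19.8 in wild-type imiquimod libraries, 72.8, 66.1 and 40.3 in NF-kB1-deficient sham libraries and 65.8, 68.7 and 76.8 in wild-type sham libraries. It fell under imiquimod in wild type by 1.73 ± 0.43 on the log2 scale (limma adjusted p = 0.00905). Leaving out replicate 3 of the wild-type sham group raised the adjusted p to 0.0505, and leaving out replicate 1 of the wild-type imiquimod group raised it to 0.0574, so either loss ended the call. The calls of Il7r, Cd27 and Tcrd were all lost when the minimum on the mean was dropped and when limma's trend and robust options were not used. For NF-kB1 deficient against wild type under imiquimod the difference was 1.46 ± 0.43 (adjusted p = 0.0510). Tcrg, the gamma chain locus line, differed by 1.23 ± 0.48 in that comparison (adjusted p = 0.194), Cd3d by 2.67 ± 1.03 (0.185), Tcrg-C2 by -0.53 ± 0.87 (0.829) and Cd247 by -1.02 ± 1.29 (0.765). In bulk libraries, fewer cells of a type and less RNA per cell cannot be told apart.

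**Figure D4:**
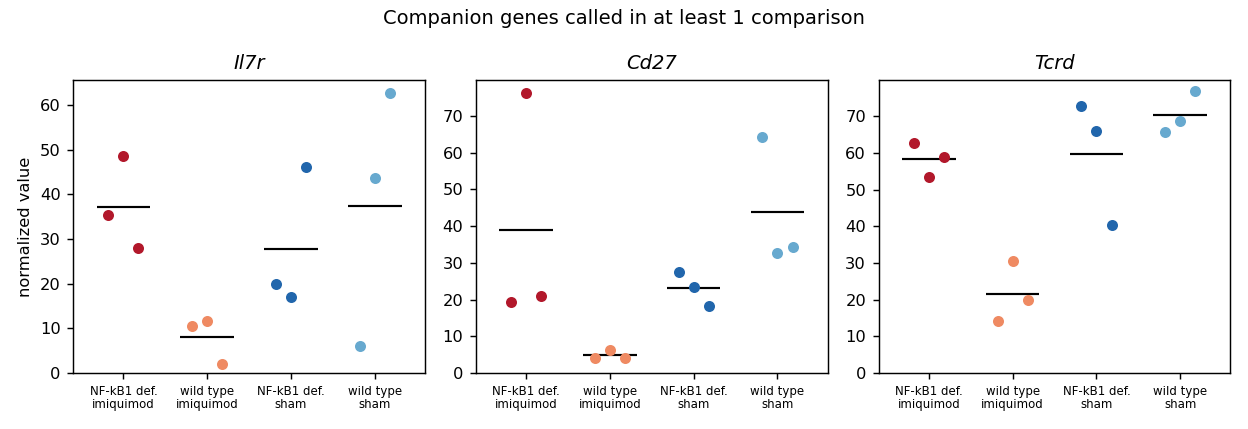
Normalized value (y axis, linear) of Il7r, Cd27 and Tcrd in each library, by group (x axis); points are libraries and lines are group means. Wild-type imiquimod libraries are the lowest group for each of the 3 genes: Cd27 stands at 4.82 ± 1.30 there, against 43.7 ± 17.9 in wild-type sham libraries (SD, n = 3 each).

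Of 36 genes of IL-17 signalling and NF-kB, 6 were tested and 0 were called in any of the 7 comparisons by limma. Il17ra, the shared receptor chain for IL-17A and IL-17F, had 37.05, 18.2 and 34.4 in NF-kB1-deficient imiquimod libraries and 29.3, 18.9 and 31.7 in wild-type imiquimod libraries, which overlapped. Nfkbia, the inhibitor IkB alpha, had 67.2, 47.5 and 31.8 in NF-kB1-deficient imiquimod libraries and 20.4, 22.6 and 25.7 in wild-type imiquimod libraries. These did not overlap, as for 10.8% of tested genes in that direction, and the difference was not called (limma adjusted p = 0.314). Rorb, a nuclear receptor of the ROR family, had 5.51, 4.19 and 14.4 in NF-kB1-deficient imiquimod libraries and 23.1, 19.7 and 79.1 in wild-type imiquimod libraries, a log2 difference of -2.09 ± 0.80 (adjusted p = 0.184).

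Among tested genes, those whose values followed Maf most closely over the 12 libraries were Chmp3, Rnf166 and Cyb5a, with Pearson r of log2(normalized value + 1) of 0.80, 0.80 and 0.79. Those nearest Cd163l1 were Hnrnph1, Arf3 and Kdm7a, with r of 0.88, 0.88 and 0.83. Maf and Cd163l1 had r = 0.21 with each other. These are descriptions over 12 libraries that share their depth and groups.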

How the data were processed

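Trizol RNA was made into QuantSeq 3' forward libraries, per the labels' protocols. The submitters' processing notes name the build mm10. In the sources used here, the aligner, counter, annotation and normalization method are not given. What the authors deposited were log2 normalized read counts for 45796 genes by 12 libraries, and 0 columns were left unused. Columns were matched to samples by title. Values were taken back to the linear scale, with log2 values at or below 0 set to 0. Among values below 20 reads, whole reads (tolerance 0.01 read) made up 71.2% to 80.2%, which does not recover the reads, and no count test was made. Precision is limited by the few reads per gene; no molecular identifiers are in the table.

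The model was fitted by limma (version 3.58.1; R 4.3.3; data.table, version 1.17.8): log2(normalized value + 1), genes with a mean of at least 5 (1571), 1 coefficient per group, eBayes with trend and robust, Benjamini-Hochberg adjustment over those genes. Fold changes on this scale understate changes of low genes. Tables and plots used python 3.11.15 with pandas 2.3.3, numpy 2.4.6 and matplotlib 3.10.9. Members below the minimum are given per library, with exact permutation tests added after their values were seen. The 9 genes and all lists were chosen with earlier results of these data known. The text names the 9 genes, every list gene called, up to 4 more per list by highest mean, and the 3 tested genes most like each widely detected member. Some list genes are not reported here. Alternatives were other pseudocounts, minimums, scaling, no trend, a replicate block and leaving out each library.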

Additional observations from a re-analysis of the deposited data

Results flagged for a closer look

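Tgfbr2, a receptor chain for TGF-beta, was picked out because its libraries lay apart in opposite directions in the genotypes; neither response was called by limma. It had 11.02, 7.68 and 18.8 in NF-kB1-deficient imiquimod libraries, all above the 4.41, 7.12 and 5.03 of NF-kB1-deficient sham libraries. It had 0, 1.05 and 1.98 in wild-type imiquimod libraries, all below the 14.0, 15.4 and 6.21 of wild-type sham libraries. The difference between both responses was 3.71 ± 1.56 (log2, SE), with a limma adjusted p of 0.337 after Benjamini-Hochberg adjustment and an unadjusted p of 0.0189, so it was not called either. Within each genotype the imiquimod response was 0.99 ± 1.11 in NF-kB1 deficient (adjusted p = 0.996) and -2.72 ± 1.11 in wild type (adjusted p = 0.139). Of all tested genes, 6.11% lay apart upward in NF-kB1 deficient and 10.8% lay apart downward in wild type.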

How the results depend on the processing

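Neither Maf nor Cd163l1 was called under any alternative run, and both stayed below 0 for NF-kB1 deficient against wild type under imiquimod and over both creams in each of them. Requiring a mean of at least 20 left no member to test, and with no minimum 1 member (Il17a) was not tested in place of 7, with no call among 8. Directions near 0 turned. For imiquimod against sham, Maf in wild type was -0.024 with equal library totals and -0.54 to 0.97 with 1 library left out; in NF-kB1 deficient it was 0.012 with a pseudocount of 10 and -1.16 to 0.68 with 1 library left out; over both genotypes it was 0.095 with that pseudocount and -0.53 to 0.39 with 1 library left out. Its interaction ran from -1.27 to 0.57. Cd163l1 in wild type was 0.11 with a pseudocount of 10 and -1.22 to 1.08 with 1 library left out; under sham its genotype difference ran from -1.43 to 0.45, and its interaction from -2.30 to 0.0069. The cause was not tested.

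Counts of called genes moved more. For imiquimod in wild type the 51 became 26 with a pseudocount of 0.1, 11 with no minimum, 18 with neither trend nor robust and 26 to 73 with 1 library left out (26 when replicate 3 of wild-type sham and 28 when replicate 1 of wild-type imiquimod was left out). For genotype under imiquimod the 28 became 18, 3, 0 and 4 to 42 by the same settings in that order (18 without NF-kB1-deficient sham replicate 1, and 10, 4 and 9 without NF-kB1-deficient imiquimod replicates 1, 2 and 3). For the interaction the 7 became 1 with no minimum, 13 with a mean of at least 20, 0 with neither trend nor robust and 2 to 12 (12 and 2 without wild-type imiquimod replicates 2 and 3, 4 without NF-kB1-deficient imiquimod replicate 2, 2 without NF-kB1-deficient sham replicate 3). For imiquimod over both genotypes the 21 became 9, 5, 0 and 9 to 23 (9 without NF-kB1-deficient imiquimod replicate 3 or wild-type sham replicate 1, 10 and 13 without imiquimod replicate 1 of NF-kB1 deficient and of wild type, 11 without NF-kB1-deficient sham replicate 2). For genotype over both creams the 3 became 1 with no minimum, 0 with neither trend nor robust and 1 to 7 (1 without NF-kB1-deficient imiquimod replicate 2, 7 and 6 without wild-type imiquimod replicates 2 and 3, 6 without sham replicate 2 of either genotype), and under sham the 0 became 0 to 1 (1 without NF-kB1-deficient sham replicate 1). Equal totals moved the split of higher and lower calls to 19 and 29 (26 and 25 before) for imiquimod in wild type, 25 and 5 (20 and 8) for genotype under imiquimod, 6 and 4 (3 and 4) for the interaction and 8 and 9 (12 and 9) for imiquimod over both genotypes, and shifted the median log2 difference of all genes by -0.17, 0.20, 0.18 and -0.07. With a pseudocount of 10 the split was 11 and 17 for genotype under imiquimod and 47 and 25 for imiquimod in wild type, so the balance of the genotype calls turned round. With no minimum, Cd27 (0.0654 and 0.410), Tcrd (0.299) and Il7r (0.611) lost their limma calls (adjusted p), and with neither trend nor robust likewise (0.0596 and 0.195, 0.175, 0.305).

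The labels do not say whether replicate numbers pair the libraries. Deviations of same-numbered libraries correlated at -0.0098 to 0.0609 (median 0.016), and those of differently numbered libraries at -0.064 to 0.037 (median -0.0039). A replicate block gave 55, 0, 0, 32, 7, 22 and 4 called genes in the 7 comparisons, with no call on a member; 9 of 12 libraries correlated best with their own number, a hint from the data only.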
